A study of Mus musculus with 7 samples.

Results

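The FGF receptor genes Fgfr1, Fgfr2, Fgfr3 and Fgfrl1, the ligand genes Fgf1 and Fgf2, and the ETS factor genes Etv1, Etv4 and Etv5 were followed in cultured hippocampal neural stem cells (NSCs) with and without deletion of Med23. These 9 genes were taken by their symbols from a table of 24346 genes, and all 9 were among the 14151 genes with a mean of at least 0.5 FPKM that were tested. FPKM is the number of sequenced fragments scaled to transcript length and library size, so it can be compared between genes. Med23 is a subunit of Mediator, the complex that links transcription factors to RNA polymerase II. RNA was measured in primary neurospheres, which are floating clusters of cells grown from the hippocampus, with 1 library per mouse and 7 mice in all. The 3 Med23 CKO mice (KO_117, KO_214 and KO_218) were Nestin-CreER:Med23 flox/flox animals, in which tamoxifen switches on a Cre recombinase in cells that use the Nestin promoter. The 4 control mice (WT_215, WT_116, WT_213 and WT_220) are labelled wild type, and the study's methods describe controls as littermates that were Med23 flox/+ or Med23 flox/flox. Which of these genotypes each control mouse had is not given in the sources used here. Both groups were C57/BL6 mice that took tamoxifen at 200 mg/kg by mouth on 5 days. The labels give an age of 2 months and a recovery of 3 to 4 weeks, while the methods place the treatment of mice used for cultures at an earlier age. The neurospheres of both groups grew in medium with added FGF and EGF. The share of cells that had lost Med23 in each culture is not given in the sources used here.

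FGF ligands bind receptor tyrosine kinases together with heparan sulfate chains, and the activated receptor recruits docking proteins that pass the signal through Ras to the kinase ERK. In many tissues the transcription of Etv4 and Etv5 follows this signal, as does that of Sprouty and Dusp genes, which dampen it. In the hippocampus FGF receptors are found on radial glia-like stem cells and astrocytes, and added FGF is commonly used to keep neural stem cells dividing in culture.

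In these cultures the transcripts of Fgfr3 had a lower mean in Med23 CKO than in control neurospheres, 10.7 against 28.1 FPKM, and those of Fgfr1 had a higher mean, 62.9 against 47.1 FPKM. Etv1 was the gene among the 9 whose Med23 CKO values all lay below all control values, by a small margin. The means of the other 6 genes differed between the groups by less than the SD of the Med23 CKO group. No difference passed an adjusted threshold. With limma and Benjamini-Hochberg adjustment over all genes, 0 of the 9 had an adjusted p under 0.05, and each of the 9 adjusted p-values was 0.9999. At an unadjusted p under 0.05, 1 of the 9 (Fgfr3) was lower in Med23 CKO, where 0.996% of all genes tested were, and 0 were higher, where 0.502% of all genes tested were. The median log2 fold change of the 9 genes was 0.00, against -0.03 over all genes tested, with 5 positive and 4 negative.

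Over all genes, 0 were called at an adjusted p under 0.05 by limma, and an unadjusted p under 0.05 was reached by 71 genes with higher and 141 with lower levels in Med23 CKO (102 and 123 with quantile normalization). Med23 FPKM, which counts reads from the whole gene and so also from exons outside the floxed ones, ranged from 8.12 to 9.97 in Med23 CKO and from 10.1 to 12.9 in control libraries. Neural stem and progenitor markers were present, with 7 of 8 above 1 FPKM in every library and a summed level of 1737 to 3683 FPKM in control and 1635 to 3722 FPKM in Med23 CKO. Oligodendrocyte lineage markers were also abundant (2541 to 4500 and 2233 to 2693 FPKM summed over 7 genes), while neuroblast and neuron markers summed to 29.1 to 69.9 FPKM in control and 38.6 to 51.9 FPKM in Med23 CKO over 7 genes, with Dcx at 0.336 to 2.80 FPKM and Snap25 at 6.19 to 33.0 FPKM. The library of KO_214 stood apart in its summed markers of microglia and macrophages (369 FPKM, against 15.2 to 78.6 in control) and of mural cells and fibroblasts (305 FPKM, against 8.39 to 81.4 in control). It was also highest in summed markers of endothelial cells (93.4 FPKM, against 6.99 to 51.4 in control) and astroglia (988 FPKM, against 497 to 726 in control). No pair of libraries held identical values, and the correlation between libraries was 0.788 to 0.979 on log2(FPKM + 1). In bulk RNA, fewer cells of a type and less RNA per cell cannot be told apart.

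**Figure D1:**
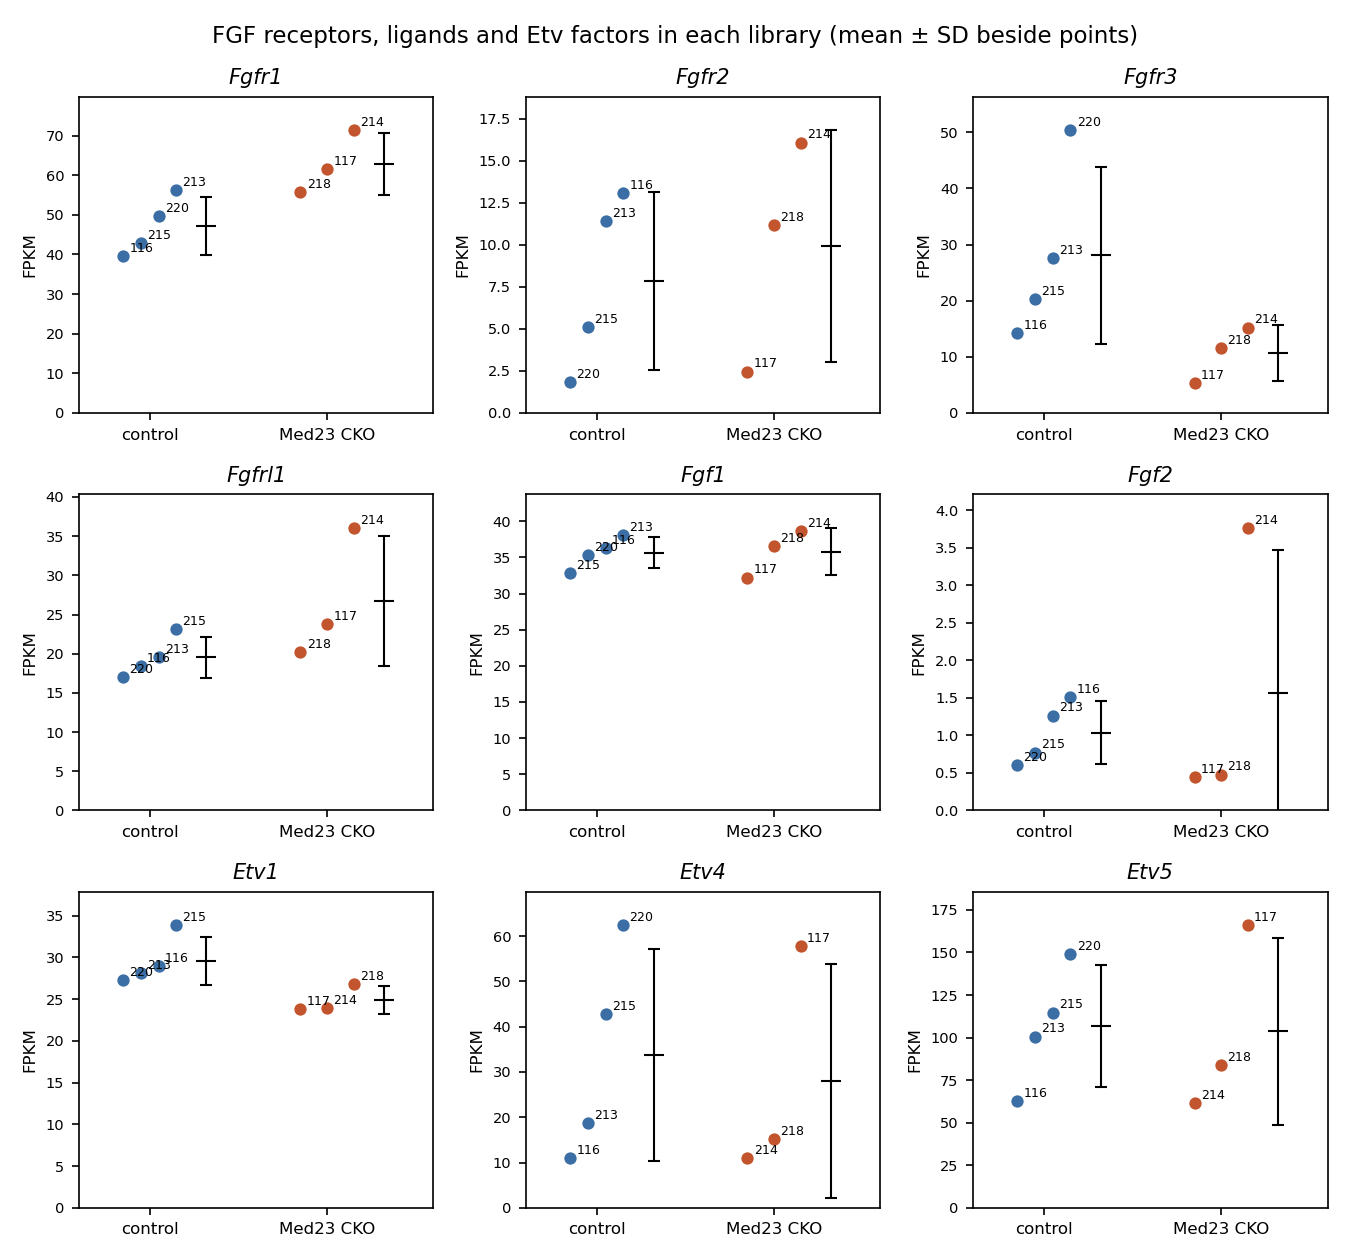
FPKM of each gene in each library, with control libraries in blue, Med23 CKO libraries in orange, mouse numbers beside the points (ordered by value within a group) and bars for the mean ± SD (n = 4 and n = 3), cut at 0 for Fgf2. Fgfr3 lies mostly lower and Fgfr1 mostly higher in Med23 CKO, each with 1 overlapping pair of libraries, and Fgf2 has a single high value in KO_214.

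Fgfr1 encodes the receptor with the highest level in these cultures, at the 88.2 percentile of the genes tested. The control libraries WT_215, WT_116, WT_213 and WT_220 held 43.0, 39.6, 56.2 and 49.8 FPKM of Fgfr1, and the Med23 CKO libraries KO_117, KO_214 and KO_218 held 61.5, 71.3 and 55.8 FPKM. The groups were separate except that KO_218 lay just under WT_213. The means were 47.1 ± 7.39 FPKM (SD, n = 4) and 62.9 ± 7.85 FPKM (SD, n = 3). The log2 fold change was 0.41 (SE 0.18, 95% interval -0.01 to 0.84), with an unadjusted p of 0.0539 from limma and 0.0857 from an exact permutation test, two-sided, in which 3 and 4 libraries cannot go below 0.0286. The unadjusted limma p was 0.0396 without WT_213, 0.0394 with no filter on low values, 0.0481 with quantile normalization and 0.0339 with median centring, at log2 fold changes of 0.50, 0.41, 0.42 and 0.44. It stayed above 0.05 in the other 10 settings, among them array weights (log2 fold change 0.26) and the fits without KO_214 (0.32), WT_116 (0.34) or WT_215 (0.37), where it lay between 0.124 and 0.157. In GRCm38 Fgfr1 lies on chromosome 8, 25513654 to 25575718, on the forward strand. Of its 9875 exonic bases in GENCODE M21, 164 overlap the antisense gene Gm16159, which had 0.0616 to 0.830 FPKM over the 7 libraries.

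Fgfr3, a receptor known from astrocytes and radial glia, varied more between libraries. In the same order, the control libraries held 20.3, 14.2, 27.6 and 50.3 FPKM of Fgfr3, and the Med23 CKO libraries held 5.32, 15.2 and 11.5 FPKM. The highest 3 values were all from control mice, and the groups overlapped where KO_214 lay above WT_116. The means were 28.1 ± 15.8 FPKM (SD, n = 4) and 10.7 ± 4.99 FPKM (SD, n = 3), a 2.63-fold higher mean in control. The log2 fold change was -1.28 (SE 0.48, 95% interval -2.38 to -0.17), with an unadjusted limma p of 0.0295, an adjusted p of 0.9999 and an exact permutation p of 0.0857. Leaving out a single library took the unadjusted p above 0.05 in 4 of 7 cases, to 0.0619 without WT_213 (log2 fold change -1.23), 0.0581 without WT_220 (-0.95), 0.0978 without KO_117 (-0.88) and 0.0537 without KO_218 (-1.38). Over all 14 other settings the log2 fold change stayed between -1.56 and -0.88. Summed astroglia markers, 9 genes of which 0 were at 0 in all libraries, ranged from 497 to 726 FPKM in control and from 429 to 988 FPKM in Med23 CKO, with 5 positive and 4 negative log2 fold changes, and their part in the Fgfr3 difference was not tested. In GRCm38 Fgfr3 lies on chromosome 5, 33721674 to 33737068, on the forward strand, and 998 of its 7158 exonic bases in GENCODE M21 overlap the antisense gene G630022F23Rik. G630022F23Rik is not among the genes with FPKM values, so its level is not known. No source states that strand was used in counting, so any reads from it over these bases cannot be told apart from those of Fgfr3.

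Fgfr2, the receptor whose splice forms distinguish epithelial from mesenchymal FGF signalling, was the lowest of the 3 kinase receptors. Its FPKM values were 5.10, 13.1, 11.4 and 1.84 in the controls against 2.46, 16.1 and 11.2 in Med23 CKO, an 8.72-fold range over the 7 libraries. Both groups held low and high libraries and overlapped throughout. The means were 7.86 ± 5.28 FPKM (SD, n = 4) and 9.91 ± 6.90 FPKM (SD, n = 3), with a log2 fold change of 0.27 (SE 0.72, 95% interval -1.41 to 1.95). A change of more than 2-fold in either direction is within that interval. In GENCODE M21 the gene lies on the reverse strand of chromosome 7 from 130162451 to 133123350. There, 314 of its 10328 exonic bases overlap Ctbp2 on the same strand. Ctbp2 had higher levels than Fgfr2, at 12.2 to 28.4 FPKM in control and 14.8 to 38.0 FPKM in Med23 CKO libraries. Whether the gene annotation behind these FPKM values holds this overlap is not given in the sources used here. If it does, reads of Ctbp2 over the shared bases cannot be told apart from those of Fgfr2.

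Fgfrl1 encodes an FGF receptor without a tyrosine kinase domain that binds ligand at the cell surface. Its FPKM values were 23.1, 18.4, 19.6 and 17.0 in the controls against 23.8, 36.1 and 20.2 in Med23 CKO. KO_214 was the highest library, KO_117 lay just above the control range and KO_218 within it. The means were 19.5 ± 2.60 FPKM (SD, n = 4) and 26.7 ± 8.30 FPKM (SD, n = 3). The log2 fold change was 0.40 (SE 0.23, 95% interval -0.14 to 0.94, unadjusted limma p = 0.124, exact permutation p = 0.114). Without KO_214 it was 0.17. KO_214 also had the highest marker sums of microglia, mural cells, endothelial cells and astroglia, and the lowest of stem and progenitor and of proliferating cells. Their part in the Fgfrl1 value was not tested. Fgfrl1 lies on the forward strand of chromosome 5, from 108692382 to 108706924.

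Because FPKM is per length, the 3 kinase receptors can be expressed as shares of their summed level within a library. The sum itself hardly differed, and the control mean of 83.1 ± 18.1 FPKM (SD, n = 4) compared with 83.4 ± 17.2 FPKM (SD, n = 3) in Med23 CKO. Fgfr3 made up 29.7%, 21.3%, 29.0% and 49.4% of the sum in the controls and 7.67%, 14.8% and 14.7% in Med23 CKO. Every Med23 CKO share was thus under every control share. The share uses the same Fgfr3 values as the test of Fgfr3 alone, where the groups overlapped, so it is not a separate result. The mean share was 32.3 ± 11.99% (SD, n = 4) against 12.4 ± 4.08% (SD, n = 3), a difference of -19.9 percentage points (p = 0.0571 in a two-sided exact permutation test). Leaving out single libraries gave differences of -23.6 to -14.3 points. Fgfr1 made up 48.8% to 62.8% in control and 69.5% to 88.8% in Med23 CKO. This Fgfr1 share was described after the values had been seen, and since the shares add up to 100% it is not separate from that of Fgfr3. The share of Fgfr2, 1.81% to 19.6% in control and 3.55% to 15.7% in Med23 CKO, overlapped.

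**Figure D2:**
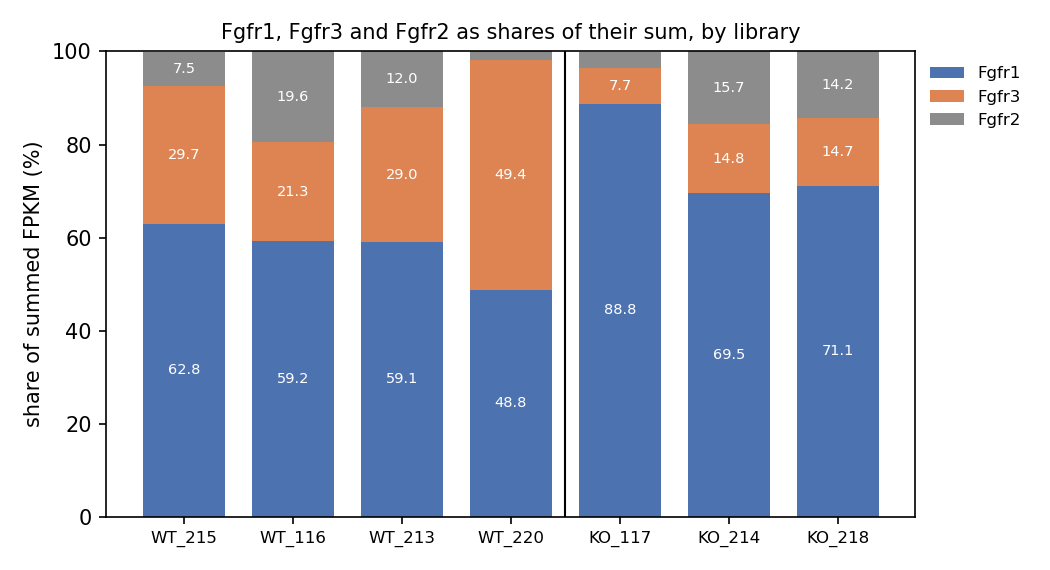
Shares of Fgfr1, Fgfr3 and Fgfr2 in their summed FPKM, in percent, as 1 stacked bar per library with the control libraries left of the line. The Fgfr3 section is 21.3% to 49.4% in control and 7.67% to 14.8% in Med23 CKO libraries.

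The within-library difference between 2 receptors tests whether they differed in their change. On log2(FPKM + 1), Fgfr1 exceeded Fgfr3 by 1.04, 1.41, 1.002 and -0.02 in the controls and by 3.31, 2.16 and 2.18 in Med23 CKO. All 3 Med23 CKO differences lay above all 4 control differences. These differences use the same values as the tests of Fgfr1 and Fgfr3 alone, where the groups overlapped, and are not separate from them. How often other pairs of genes had this pattern was not counted. The change of Fgfr1 exceeded that of Fgfr3 by 1.69 (exact permutation test, two-sided, p = 0.0286, the smallest these 7 libraries allow, and 0.171 after Benjamini-Hochberg adjustment over 6 pairs of receptors or Etv factors). Between Fgfr2 and Fgfr3 the difference in change was 1.55 (exact p = 0.143, adjusted 0.429), with 0.76 without WT_220 and 2.12 without WT_116, and between Fgfr1 and Fgfr2 it was 0.14 (exact p = 0.914, adjusted 0.943). After adjustment no pair of receptors was shown to differ. No 50-base stretch of transcript was shared within the receptor family in GENCODE M21, Fgfr4 included, nor among the 3 Etv genes.

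Fgf1, a heparin-binding ligand without a classical secretion signal, was the steadiest of the 9 genes. Control libraries held 32.9, 36.3, 38.1 and 35.4 FPKM of Fgf1 and Med23 CKO libraries 32.2, 38.6 and 36.6 FPKM, with a coefficient of variation of 6.84% over the 7 libraries. The groups overlapped fully, at 35.7 ± 2.19 FPKM (SD, n = 4) and 35.8 ± 3.27 FPKM (SD, n = 3). The log2 fold change was 0.00, with a 95% interval of -0.34 to 0.35. Fgf1 lies on the reverse strand of chromosome 18, from 38838673 to 38929472.

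Fgf2, the ligand most often added to neural stem cell cultures, was itself transcribed at a low level, at the 9.58 percentile of the genes tested. Its FPKM values were 0.772, 1.51, 1.27 and 0.601 in the controls against 0.439, 3.77 and 0.477 in Med23 CKO. KO_214 held the highest value of the 7 libraries, while KO_117 and KO_218 held the lowest. The Med23 CKO mean of 1.56 ± 1.91 FPKM (SD, n = 3) therefore rests on 1 library, against 1.04 ± 0.422 FPKM (SD, n = 4) in control. The log2 fold change was 0.11 (SE 0.45) with all libraries, -0.46 without KO_214 and -0.016 with a pseudocount of 0.1. Fgf2 lies on the forward strand of chromosome 3, from 37348346 to 37410108, where 895 of its 6782 exonic bases overlap Nudt6 on the opposite strand or Gm43439. Nudt6 had 4.71 to 6.17 FPKM in control and 2.66 to 6.43 FPKM in Med23 CKO libraries, and its reads over the shared bases cannot be told apart from those of Fgf2.

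**Figure D3:**
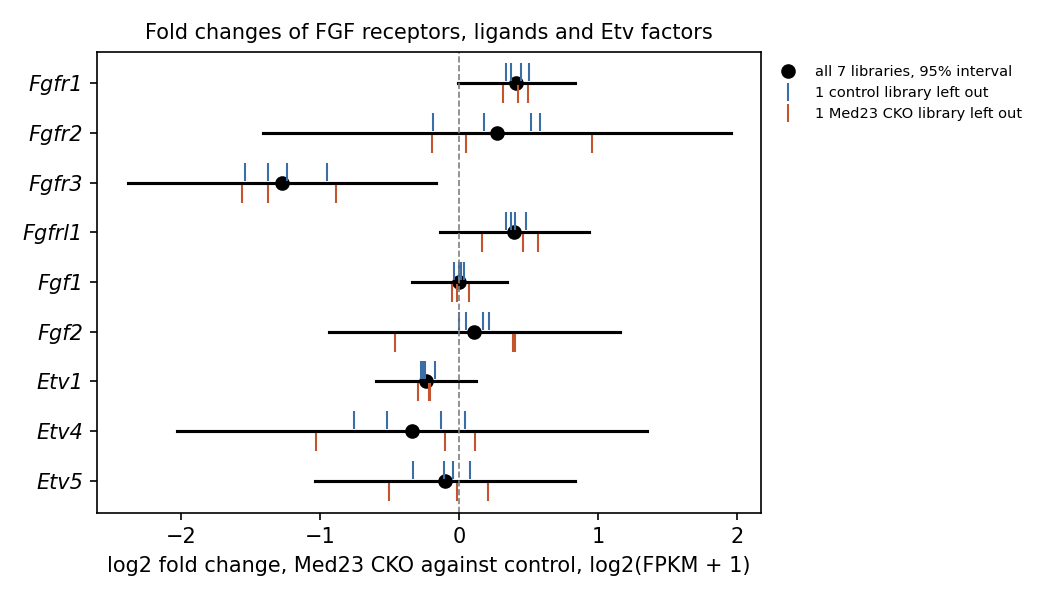
Log2 fold change of each gene on log2(FPKM + 1), Med23 CKO against control, as a point with its 95% interval from limma, and the value with 1 control library (blue ticks) or 1 Med23 CKO library (orange ticks) left out. The interval of Fgfr3 (-2.38 to -0.17) lies below 0, those of the other 8 genes include 0, and the ticks of Fgfr2, Fgf1, Fgf2, Etv4 and Etv5 fall on both sides of 0.

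Etv1, Etv4 and Etv5 make up the PEA3 group of ETS transcription factors. Control libraries held 33.8, 28.9, 28.2 and 27.3 FPKM of Etv1, and Med23 CKO libraries 23.8, 23.96 and 26.8 FPKM. All 3 Med23 CKO values lay below all 4 control values, as was the case for 1.53% of all genes tested, and KO_218 and WT_220 were almost level. The means were 29.6 ± 2.92 FPKM (SD, n = 4) and 24.9 ± 1.69 FPKM (SD, n = 3), with a log2 fold change of -0.24 (SE 0.15, 95% interval -0.60 to 0.12, unadjusted limma p = 0.162, exact permutation p = 0.0571). Over all 14 other settings it stayed between -0.29 and -0.17. Etv1 lies on the forward strand of chromosome 12, from 38779380 to 38870484.

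Etv4 and Etv5 varied far more between the mice of a group than between the groups. FPKM values of Etv4 were 42.8, 10.99, 18.8 and 62.3 in the controls against 57.7, 10.96 and 15.2 in Med23 CKO. WT_220, KO_117 and WT_215 were high and the other 4 libraries low, so the groups overlapped over nearly their whole range. The means were 33.7 ± 23.4 FPKM (SD, n = 4) and 28.0 ± 25.9 FPKM (SD, n = 3), with a log2 fold change of -0.34 (SE 0.73, 95% interval -2.03 to 1.35). Etv5, the most abundant of the 9 genes at the 94.7 percentile, stood at 114.7, 62.9, 100.6 and 149.2 FPKM in the controls against 165.9, 61.4 and 83.9 FPKM in Med23 CKO. The same 3 libraries were highest as for Etv4. Its means were 106.8 ± 35.7 FPKM (SD, n = 4) and 103.8 ± 55.0 FPKM (SD, n = 3), with a log2 fold change of -0.10 (SE 0.40, 95% interval -1.04 to 0.83). Among the 3 pairs of Etv factors, the differences in change were 0.10 for Etv1 and Etv4, -0.14 for Etv1 and Etv5, and -0.24 for Etv4 and Etv5 (exact permutation p = 0.943, 0.771 and 0.600, each 0.943 after adjustment). Etv4 lies on the reverse strand of chromosome 11 from 101769742 to 101785371, and Etv5 on the reverse strand of chromosome 16 from 22381309 to 22439719.

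Ordered by control mean, Etv5 was highest and its range (62.9 to 149.2 FPKM) did not overlap that of Fgfr1 (39.6 to 56.2 FPKM). Fgfr1 in turn did not overlap Fgf1 (32.9 to 38.1 FPKM). From Fgf1 through Etv4, Etv1 and Fgfr3 to Fgfrl1 each gene overlapped the next in the order, although the ranges of Fgf1 and of Etv1 (27.3 to 33.8 FPKM) lay wholly above that of Fgfrl1. Fgfr2 (1.84 to 13.1 FPKM) lay under Fgfrl1 (17.0 to 23.1 FPKM), and Fgf2 (0.601 to 1.51 FPKM) lay under Fgfr2.

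The library order of Etv4 and Etv5 was close to the reverse of that of Fgfr2. Fgfr2 was lowest in WT_220, KO_117 and WT_215 (1.84, 2.46 and 5.10 FPKM), where Etv4 was highest, and Fgfr2 was highest in KO_214 (16.1 FPKM), where Etv5 was lowest. The ERK-induced inhibitor Spry1 had 59.4, 89.1 and 80.1 FPKM in WT_215, WT_220 and KO_117 and 15.8 to 31.3 FPKM in the other 4 libraries. Of the other feedback inhibitors listed, Spry2, Spry4, Spred2 and Spred3 were also highest in WT_215, WT_220 and KO_117. Spred1, Dusp4, Dusp5, Dusp6 and Il17rd did not split this way, and Dusp6 had 78.4 FPKM in WT_215 against 80.0 FPKM in WT_213. Summed markers of proliferating cells (6 genes, 0 of them at 0 in all libraries) were 752, 739 and 966 FPKM in WT_215, WT_220 and KO_117 and 214.6 to 545 FPKM in the others. By group these sums were 316 to 752 FPKM in control and 214.6 to 966 FPKM in Med23 CKO. Summed neural stem and progenitor markers were 3215, 3683 and 3722 FPKM in WT_215, WT_220 and KO_117 and 1635 to 2853 FPKM in the others. Sums for microglia and macrophages, endothelial cells, and neuroblasts and neurons were lowest in WT_215, WT_220 and KO_117. Those for astroglia, oligodendrocyte lineage, and mural cells and fibroblasts did not split this way. The library order crosses the genotypes and was described after the values had been seen. The part of any cell type in it was not tested.

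**Figure D4:**
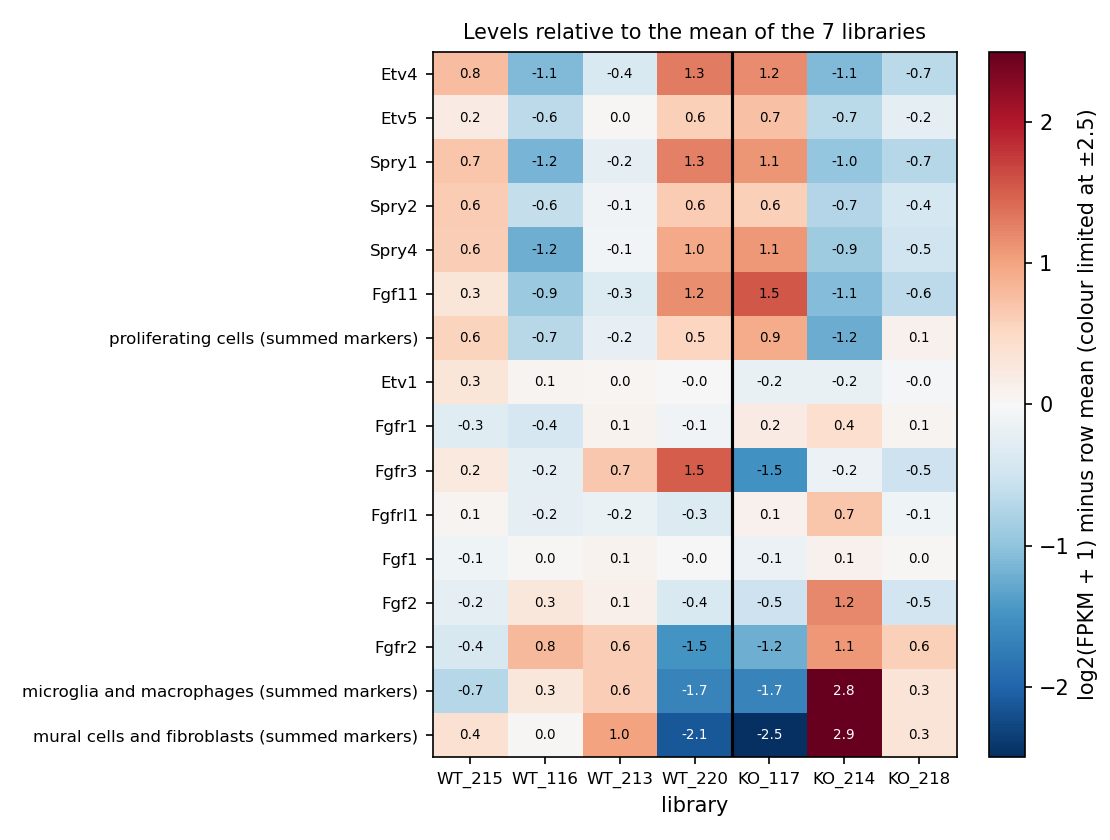
Log2(FPKM + 1) of each gene or summed marker list minus its mean over the 7 libraries, with control libraries left of the line and the colour limited at ±2.5. Etv4, Etv5, Sprouty genes, Fgf11 and summed proliferation markers are above their mean in WT_215, WT_220 and KO_117, where Fgfr2 is below its mean.

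For each gene, the 3 genes with the most similar values were found by Pearson's r of log2(FPKM + 1) over the 7 libraries, as a description of libraries that share genotype and culture differences. Fgfr3 was most like Micalcl (r = 0.991, Spearman's rho = 0.964), Mical2 (r = 0.970) and Abcc12 (r = 0.968). Mical2 stood at 14.7, 9.55, 14.1 and 29.4 FPKM in the controls against 4.21, 11.7 and 6.03 FPKM in Med23 CKO, so it too was highest in WT_220 and lowest in KO_117. Fgfr1 was most like Dennd3 (r = 0.962), Kcnf1 (r = 0.952) and Mlc1 (r = 0.948), a membrane protein gene of astrocytes. Mlc1 ranged from 33.2 to 56.5 FPKM in control and from 76.0 to 117.8 FPKM in Med23 CKO. Its Med23 CKO values thus lay above all control values, as was the case for 0.784% of all genes tested. Mlc1 was picked for its likeness to Fgfr1 over these same libraries, so this is not a separate result. By limma, no gene was called at an adjusted p under 0.05. Fgfr2 was most like Fgd4 (r = 0.997), Wls (r = 0.996) and Twf1 (r = 0.996), Etv4 like Ppp1r14b, Eif4a3 and B4galt2 (each r = 0.998), and Etv5 like Cdh24 (r = 0.997), Axin2 (r = 0.995), a target gene of Wnt signalling, and Tmem44 (r = 0.994). Etv1 was most like Ccdc15, Lppr5 and Tmem178b (r = 0.942, 0.941 and 0.939). Fgf1 was most like Utp11l, Erich1 and Nkd2 (r = 0.971, 0.970 and 0.961), Fgf2 like Zhx2, Creg2 and Daglb (r = 0.993, 0.991 and 0.991), and Fgfrl1 like Amz1, Nuak2 and Unkl (r = 0.991, 0.979 and 0.967).

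RefSeq (GRCm38.p6) gave the 250 bases before a transcription start for 6 of the 9 genes, with 9 starts in all. They are shown for Fgfr3 and Etv1, the receptor and the Etv factor with the lowest log2 fold change relative to its SE, and for Fgfrl1, which held the ETS letters. Capitals mark GGGCGG, the core of the GC box, and CCGGAA, a core bound by ETS factors, on either strand. All 3 stretches lie inside the gene as GENCODE M21 annotates it, before a start that RefSeq places further in, and none lies in an exon of the same strand there. The outer Fgfr3 start held 3 GC boxes and is not shown, because its 250 bases reach into an exon.
Fgfr3, chr5:33722056-33722305, forward strand, RefSeq GRCm38.p6: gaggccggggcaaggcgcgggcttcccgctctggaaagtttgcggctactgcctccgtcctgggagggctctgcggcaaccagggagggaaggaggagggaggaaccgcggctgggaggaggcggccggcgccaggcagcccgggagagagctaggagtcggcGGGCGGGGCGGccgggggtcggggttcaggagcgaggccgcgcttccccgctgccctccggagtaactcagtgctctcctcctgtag
Etv1, chr12:38779832-38780081, forward strand, RefSeq GRCm38.p6: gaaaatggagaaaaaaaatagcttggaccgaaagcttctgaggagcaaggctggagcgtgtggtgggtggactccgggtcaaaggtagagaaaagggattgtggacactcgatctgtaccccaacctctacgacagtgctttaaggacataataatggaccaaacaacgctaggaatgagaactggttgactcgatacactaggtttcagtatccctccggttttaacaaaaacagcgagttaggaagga
Fgfrl1, chr5:108693979-108694228, forward strand, RefSeq GRCm38.p6: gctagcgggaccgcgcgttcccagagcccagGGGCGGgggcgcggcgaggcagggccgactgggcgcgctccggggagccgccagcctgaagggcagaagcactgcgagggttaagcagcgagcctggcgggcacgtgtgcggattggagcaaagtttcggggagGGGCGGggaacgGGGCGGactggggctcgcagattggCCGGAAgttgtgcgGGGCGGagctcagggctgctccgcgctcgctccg

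The Fgfr3 stretch was 72.8% G and C and held 2 overlapping GC boxes. The Etv1 stretch was 46.4% G and C and held neither motif, and the Fgfrl1 stretch was 73.6% G and C and held 4 GC boxes and 1 CCGGAA. Of the 9 starts, 5 held a GC box, 1 held CCGGAA and 1 held TATAAA, while 32.7%, 12.03% and 12.4% of the 32851 upstream stretches of the same length held them. A match describes these letters and is not evidence of binding.

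The other genes of the pathway were taken from a list of 89 genes in 6 groups, of which 70 were tested. Of these 70, limma gave 0 an adjusted p under 0.05, and 0 in either direction an unadjusted p under 0.05. Their log2 fold changes were positive for 32 and negative for 38, with a median of -0.03, the same as over all genes tested. In 1 gene, Gpc6, the Med23 CKO libraries were all above the controls, where 0.784% of all genes had this pattern, and in 1 gene, Araf, they were all below, where 1.53% of all genes had that pattern. Both were named after their values were seen. Gpc6, a heparan sulfate proteoglycan of the cell surface, stood at 5.89, 3.12, 5.25 and 5.93 FPKM in the controls against 9.95, 6.29 and 7.39 FPKM in Med23 CKO (log2 fold change 0.56, SE 0.26).

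Among 21 other ligand and receptor genes, 5 were tested. Fgf11 and Fgf12, which encode intracellular FGF homologous factors, had the highest means of these. Fgf11 ranged from 2.72 to 14.9 FPKM in control and from 2.36 to 19.7 FPKM in Med23 CKO, and Fgf12 from 3.52 to 6.53 and from 1.54 to 9.24 FPKM. Fgfr4, the remaining kinase receptor, had 0.156 to 0.575 FPKM over the 7 libraries and did not reach the level for testing. Fgf6 and Fgf20 were listed at 0 in every library. The median log2 fold change of the 5 was -0.14.

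Of 24 coreceptor and heparan sulfate genes, 21 were tested, with a median of 0.03 and 16 positive. Sulf2, a sulfatase that trims heparan sulfate, was the most abundant, at 123.2 to 170.6 FPKM in control and 119.9 to 197.7 FPKM in Med23 CKO. Sdc3, a syndecan of neural cells, ranged from 23.7 to 163.0 and from 29.6 to 187.2 FPKM and was highest in KO_117 and WT_220. All 12 docking and adaptor genes were tested (median -0.06), among them Ptpn11, which encodes the phosphatase Shp2, at 43.5 to 52.3 FPKM in control and 39.2 to 50.4 FPKM in Med23 CKO. Crk, an SH2 adaptor, ranged from 34.0 to 42.4 and from 39.7 to 42.8 FPKM.

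The 10 genes of the Ras to ERK cascade had a median of -0.05. Araf, a Raf kinase, stood at 65.4, 78.8, 71.4 and 64.0 FPKM in the controls against 50.7, 61.3 and 62.1 FPKM in Med23 CKO (log2 fold change -0.26, SE 0.16, exact permutation p = 0.0571). Among the 10 feedback inhibitors (median -0.17, with 3 positive and 7 negative), Spry2 ranged from 68.3 to 160.5 FPKM in control and from 61.8 to 156.6 FPKM in Med23 CKO. Dusp6, an ERK phosphatase, ranged from 52.9 to 103.97 and from 66.0 to 81.1 FPKM. The 12 other ETS factors and Cic had a median of -0.13. The repressor genes Erf (10.3 to 68.8 FPKM in control, 9.50 to 50.4 in Med23 CKO) and Cic (19.5 to 41.9 and 13.6 to 42.3 FPKM) overlapped between the groups.

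**Figure D5:**
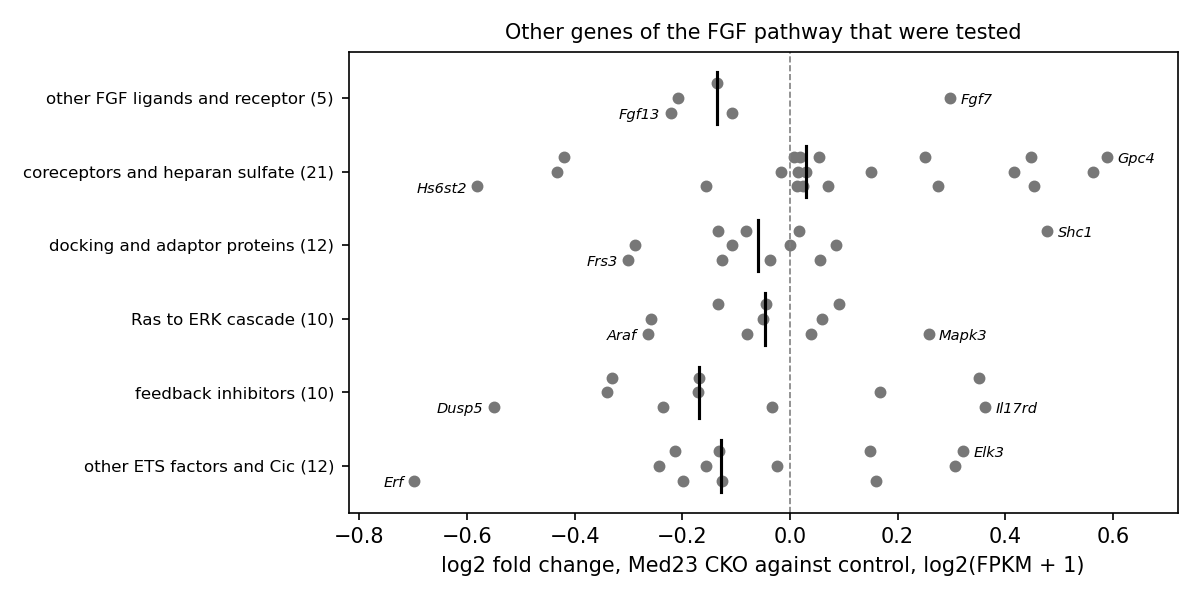
Log2 fold change on log2(FPKM + 1), Med23 CKO against control, of the 70 pathway genes tested, by group with the number of genes in parentheses, where lines are group medians and the lowest and highest gene are named. The medians lie between -0.17 for feedback inhibitors and 0.03 for coreceptors and heparan sulfate, and all genes lie between -0.70 and 0.59.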

How the data were processed

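RNA-seq was done on primary hippocampal neurospheres of 4 control and 3 Med23 CKO mice, grouped by their genotype labels, and each mouse was 1 replicate. The study states fewer control mice for its RNA-seq than the 4 control libraries, and none was left out here. The authors trimmed adapters, checked the reads with FastQC, mapped them to mm10 (Tophat) and obtained FPKM per gene from Cuffdiff, and they deposited FPKM for each library. The deposited table also holds the authors' own comparison (group FPKM, a log2 fold change, a test score, a p-value and a q-value), which was not used. Counts were not used, and low FPKM values fell on no steps of whole fragments (in 21 pairs of libraries, the ratios of 781 low genes put at most 3.33% in any bin of 0.05 log2), so depth is unknown and the number of libraries limits the precision.

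Log2(FPKM + 1), with a pseudocount of 1, was compared for 14151 genes with a mean of at least 0.5 FPKM by limma 3.58.1 in R 4.3.3 (lmFit, then eBayes with trend), two-sided, with Benjamini-Hochberg adjustment, after tests on simulated data. Shares and within-library differences were compared by exact permutation tests over all 35 arrangements of the libraries (Python 3.11.15, numpy 2.4.6). The 9 genes, the pathway list of 89 and the 59 cell type markers were chosen with earlier results of these data known. Genes to be named were the 9, Med23, pathway genes at an unadjusted p under 0.05, the 2 most abundant of each pathway group, the 3 genes most like each of the 9, and the markers, of which 1 pathway gene is not reported here. Alternatives were a pseudocount of 0.1, no filter, a mean of at least 1 FPKM, quantile normalization, median centring, array weights, a covariate for the first digit of the mouse number, and each library left out. Positions and overlaps are from GENCODE M21 on GRCm38, which is mm10. The gene annotation behind the deposited FPKM is not given in the sources used here, and its overlaps may differ. All per-library columns were matched to samples by title.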

Additional observations from a re-analysis of the deposited data

How the results depend on the processing

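When single libraries were left out, the log2 fold changes of Fgfr1, Fgfr3, Fgfrl1 and Etv1 kept their sign, as they did under the 7 other alternatives. Those of other genes ranged from -0.19 to 0.96 for Fgfr2, from -0.051 to 0.076 for Fgf1, from -0.46 to 0.41 for Fgf2, from -1.03 to 0.12 for Etv4 and from -0.50 to 0.21 for Etv5, and Fgf2 was also -0.016 with a pseudocount of 0.1 and -0.28 with array weights. The difference in change ranged from 1.31 to 1.88 between Fgfr1 and Fgfr3, where 6 libraries cannot give an exact permutation p under 0.05, from 0.76 to 2.12 between Fgfr2 and Fgfr3, from -0.53 to 0.63 between Fgfr1 and Fgfr2, from -0.33 to 0.82 between Etv1 and Etv4, from -0.42 to 0.29 between Etv1 and Etv5 and from -0.53 to -0.03 between Etv4 and Etv5. At an unadjusted p under 0.05, the count of the 9 genes that were higher in Med23 CKO was 1 (Fgfr1) with no filter, quantile normalization or median centring and 0 to 1 with a library left out, and the count of lower genes was 0 to 1 with a library left out. Among the pathway genes, 1 was higher with no filter (Fgf22) and 1 with median centring (Gpc6), 0 to 2 with a library left out (2 without KO_117 or KO_218), and 1 was lower with no filter (Fgf15), 4 with array weights (Dusp5, Flrt3, Gab1 and Map2k2) and 0 to 1 with a library left out (1 without KO_117 or KO_214). The cause was not tested. No alternative gave any of these genes an adjusted p under 0.05. Fgf22 and Fgf15 were near the floor, at 0 to 0.702 and 0 to 0.279 FPKM over the 7 libraries, and did not pass the main filter. Over all genes, 193 were higher and 887 lower with array weights, 140 and 201 with no filter, and 45 to 354 and 70 to 410 with a library left out, at the same unadjusted threshold, and 1 gene was higher at an adjusted p without KO_214 and 1 without KO_218. The median log2 fold change of all genes was -0.03, and it was -0.09 with array weights and -0.01 with median centring. No paired analysis was possible because the mouse numbers of the 2 groups are not shared. Without read depth, the error of single low values such as those of Fgf2 cannot be given.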
